A study of Mus musculus with 7 samples.

Results

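The cells described here are the 1529 cells of i4F pancreas that the authors placed in the cluster named for NK and T cells, out of 25643 i4F cells and of 58473 cells of 7 mice in the whole series. They came from 3 i4F mice, which gave 194, 342 and 993 of them. The i4F mice (genotype label i4F-B, strain label C57BL/6, given in the methods as C57BL/6J.Ola.Hsd, 2 months old) were heterozygous for a doxycycline-inducible cassette of the Yamanaka factors Oct4, Sox2, Klf4 and c-Myc in the Pparg gene, active in principle in every tissue, and for the reverse tetracycline transactivator rtTA in the Rosa26 locus. The reference was the cluster of the same name in 2 wild-type (WT) C57BL/6 mice of the same age, with 72 and 121 cells. Mice of both genotypes received doxycycline in sucrose-containing drinking water at 1 mg/ml for 7 days, so doxycycline itself is common to the groups compared. Pancreata were dissociated with collagenase P, dispase II and trypsin, every mouse was run as 1 library with the 10x Genomics 3′ kit, and every value below is a number of unique molecular identifiers (UMIs), that is of captured mRNA molecules. The 2 caerulein-injected WT mice of the series had 0 cells in a cluster whose name starts with NK and were not analysed further.

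Natural killer (NK) cells are innate lymphocytes that kill target cells without prior priming. They weigh signals from activating receptors, such as NKp46 (encoded by Ncr1) and NK1.1 (Klrb1c), against those from inhibitory receptors. The inhibitory ones include some members of the Ly49 (Klra genes) and lectin-like families, many of which read MHC class I on the target. On activation NK cells release perforin and granzymes and secrete interferon-γ and the chemokines CCL3, CCL4 and XCL1. T cells recognise antigen through the CD3-associated T cell receptor, and γδ T cells and type 2 innate lymphoid cells (ILC2) are tissue-resident relatives that secrete IL-17 or IL-5 and IL-13. In a 3′ single-cell assay these lineages share many transcripts and are often placed in 1 cluster.

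The comparison below turns on a group of NK effector genes, so the 200 bases upstream of the transcription start of 4 of them are shown first. They are RefSeq windows on GRCm38.p6, written 5′ to 3′ on the strand of the gene, and were chosen to represent an activating receptor, the 2 arms of granule killing and the main NK cytokine. Capitals mark TGTGGT or its complement ACCACA, the core letters recognised by RUNX factors, which take part in NK cell differentiation.
Ncr1, chr7:4337515-4337714, plus strand: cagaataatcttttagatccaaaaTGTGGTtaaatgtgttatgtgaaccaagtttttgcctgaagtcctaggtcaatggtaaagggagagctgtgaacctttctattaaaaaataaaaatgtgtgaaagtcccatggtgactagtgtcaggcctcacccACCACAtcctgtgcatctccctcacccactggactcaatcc
Gzma, chr13:113100982-113101181, minus strand: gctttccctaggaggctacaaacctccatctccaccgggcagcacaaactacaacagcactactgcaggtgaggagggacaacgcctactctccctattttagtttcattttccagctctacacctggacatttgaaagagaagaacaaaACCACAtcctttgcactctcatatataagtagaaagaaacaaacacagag
Prf1, chr10:61297636-61297835, plus strand: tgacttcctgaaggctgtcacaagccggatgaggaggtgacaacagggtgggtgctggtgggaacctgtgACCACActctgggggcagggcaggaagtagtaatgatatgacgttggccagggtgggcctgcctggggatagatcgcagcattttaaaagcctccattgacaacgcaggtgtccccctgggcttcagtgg
Ifng, chr10:118440846-118441045, plus strand: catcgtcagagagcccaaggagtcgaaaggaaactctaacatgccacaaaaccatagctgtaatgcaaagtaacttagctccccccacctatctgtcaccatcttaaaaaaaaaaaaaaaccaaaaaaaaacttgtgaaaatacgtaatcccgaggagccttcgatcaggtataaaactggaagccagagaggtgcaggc
Ncr1 held 2 such matches, Gzma and Prf1 1 each and Ifng 0. Of 5 other lower genes with a window, Klrb1c and Ccl3 held 1 each and Klre1, Klra9 and Fcer1g held 0. Klrg1, Ccl4 and Tyrobp were also looked up and had no window under these names. Of 32851 promoter windows of the same length in the RefSeq table, 3665 (11.2%) held at least 1. The T-box letters GGTGTG or CACACC, searched on both strands in the same way and able to overlap the RUNX letters, were in 0 of these 4 windows and in 13.3% of all windows (4382). Such matches describe the sequence only.

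Depth differed between the mice and bears on all that follows. In the NK/T cells the WT mice had 182693 and 233648 UMIs, against 194108, 302614 and 1358254 UMIs in i4F mice. Per cell the median was 2247.5 and 1667 UMIs in WT and 782, 759.5 and 1186 UMIs in i4F mice, and cells with under 500 genes made up 8.33% and 4.96% against 52.6%, 66.4% and 25.3%. Mouse i4F 3 stands apart, since it gave 993 of the 1529 cells and nearly all cells of a sub-cluster led by the heat-shock gene Hspa1a (below), so that values without it are given below. The library names in the labels form 2 series. WT 2 shares one with the 2 caerulein mice, and the other 4 mice compared here form the other. The values without WT 2 are therefore the within-series values. Without WT 2, 30 genes were higher and 51 lower in NK/T cells (10 and 44 with it, below), 34 of the 54 called genes stayed called, and WT 1 as the lone WT mouse was assumed to vary like the i4F mice. Only 1 of 1721 NK/T barcodes occurred in more than 1 mouse.

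The transgene was seen at low depth. NK/T cells held 0 UMIs of rtTA in both WT mice, against 3, 19 and 68 for i4F mice, that is in 1.55%, 4.97% and 6.24% of the cells. For the WT mice, 0 of 72 and 0 of 121 cells allow a share of up to 4.17% and 2.48% of cells with a captured UMI, which does not limit the cells expressing it. In all other cells of the same mice rtTA was found in 0.212% and 0.0483% of WT cells and in 20.9%, 17.6% and 8.11% of i4F cells. Pou5f1, which encodes Oct4, had 0, 0 and 1 UMIs in the i4F NK/T cells, Sox2 had none in any mouse. Outside the NK/T cells Pou5f1 had 16 and 3 UMIs in WT against 154, 315 and 2 UMIs in i4F mice, and Sox2 had 0 and 1 UMIs against 15, 40 and 0 UMIs, so both were above WT in i4F 1 and i4F 2 and not in i4F 3. Whether cassette transcripts map to these genes was not tested.

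The labelled cells are described here by the given markers. Cd3e, a CD3 chain of the T cell receptor complex, had 224 and 235 UMIs of the gene per 1000000 UMIs of the mouse's NK/T cells (counts per 1000000, CPM) in the WT NK/T cells and 196, 258 and 350 CPM in the i4F NK/T cells. Trbc2, a T cell receptor β constant gene, had 1144 and 1237 CPM against 1370, 1180 and 1764 CPM, and Il7r, the IL-7 receptor used by T cells and innate lymphoid cells, had 569 and 625 CPM against 757, 463 and 374 CPM. The ranges of these 3 genes overlapped between the genotypes. Nkg7, a granule membrane protein of cytotoxic lymphocytes, had 1806 and 1126 CPM against 551, 413 and 607 CPM, with every i4F mouse below both WT mice, and missed the threshold (log2 fold change -1.36 ± 0.30 (SE), adjusted p = 0.0672, edgeR's quasi-likelihood test with Benjamini-Hochberg adjustment). The given markers summed to at most 45.7 CPM in all other cells of any mouse, beside at least 2353 CPM in NK/T cells. B cell genes were near 0, with a summed level of 0 to 44.9 CPM for the 9 listed, and the neutrophil genes summed to 0 in both WT mice and to 438, 79.3 and 16.2 CPM in i4F mice. Stellate cell and fibroblast genes summed to 3990 and 1554 CPM in WT and to 587, 393 and 150 CPM in i4F mice. Acinar genes summed to 887 and 835 CPM against 2530, 9933 and 25889 CPM (both below). The authors named the clusters from their markers in these data, so these levels describe the cells and do not test the name. The question is how the T and NK lineages are divided in each genotype.

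To ask which genes differed between the genotypes, UMIs were summed per mouse over the NK/T cells and the 2 WT and 3 i4F sums compared with edgeR. Of 3574 genes tested, 10 were higher in i4F mice (0.28%) and 44 were lower (1.23%) at an adjusted p under 0.05, together 1.51%, and 512 had an unadjusted p under 0.05. NK cell genes made up the clearest group among the lower ones. Of 14 NK cell markers 12 passed the filter on low counts, and 9 of these fell (Ncr1, Klrb1c, Klre1, Gzma, Prf1, Tyrobp, Fcer1g, Klra8 and Klra4), with a median log2 fold change of -2.78 beside 0.01 over all genes tested. In contrast, 0 of 11 tested T cell genes passed the threshold (median 0.40). In sums of this kind fewer NK cells and less RNA of these genes per NK cell cannot be told apart, so the sub-clusters are described further below.

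Among the activating receptors, Ncr1 (chromosome 7 of GRCm38, 4337724 to 4345164) had 235 and 167 CPM in the WT mice and 20.6, 3.30 and 19.9 CPM in the i4F mice, or 43 and 39 UMIs against 4, 1 and 27 UMIs. All 3 i4F mice lay far below both WT mice, and the log2 fold change was -3.46 ± 0.46 (SE; edgeR's quasi-likelihood test, adjusted p = 0.0101). Klrb1c, which encodes NK1.1 (chromosome 6, 128778485 to 128789215), had 230 and 111 CPM in WT against 25.8, 9.91 and 24.3 CPM in i4F mice. It fell by 2.83 ± 0.44 on the log2 scale (edgeR, adjusted p = 0.0231). Signalling adaptors of activating NK receptors moved the same way. Tyrobp, which encodes DAP12, had 536 and 749 CPM against 170, 99.1 and 130 CPM, a log2 fold change of -2.18 (edgeR, adjusted p = 0.0116), and Fcer1g, the Fc receptor γ chain, had 936 and 706 CPM against 319, 119 and 166 CPM, a log2 fold change of -1.96 (adjusted p = 0.0312). In all other cells of the same mice Tyrobp was higher in i4F mice (535, 656 and 278 CPM against 64.2 and 150 CPM), the opposite of its direction in NK/T cells. Of 15 tested activating receptors and adaptors 4 fell and 0 rose (median -1.43). Klrk1, which encodes NKG2D, was lower in every i4F mouse (509 and 295 CPM against 175, 43.0 and 61.1 CPM) and missed the threshold at an adjusted p of 0.0697.

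The inhibitory receptors showed the same pattern. Klrg1, a lectin-like receptor of mature NK cells and of ILC2, had 208 and 89.9 CPM in WT and 15.5, 6.61 and 8.10 CPM in i4F mice, a log2 fold change of -3.85 ± 0.49 (SE; edgeR, adjusted p = 0.00749). Of its 38 and 21 UMIs in WT 1 and WT 2, 14 and 13 lay in ILC2-like cells and 12 and 5 in NK-like cells. In the i4F mice 1, 2 and 2 UMIs lay in ILC2-like cells and 0, 0 and 2 in NK-like cells. The part of the ILC2-like share (below) in the Klrg1 value was not tested. Klra9, a member of the Ly49 family, had 170 and 107 CPM against 15.5, 3.30 and 11.04 CPM (-3.57 ± 0.45, adjusted p = 0.00749). Klre1 had 345 and 137 CPM against 25.8, 3.30 and 30.2 CPM (-3.24 ± 0.58, adjusted p = 0.0293). No i4F mouse reached a WT mouse for any of these, and 4 of 9 tested inhibitory receptors fell, none rose (median -2.13). Klrb1c, Klre1, Klra4, Klra8, Klra9 and Klra7 lie on chromosome 6 between 128778485 (Klrb1c) and 130233322 (Klra7), in the region known as the NK gene complex, and Klrg1 lies on the same chromosome at 122270596 to 122282882. Of these genes, Klrb1c, Klra4 and Klra8 were not among the listed inhibitory receptors. The Ly49 genes are near-identical copies, so how their UMIs are split among Klra4, Klra7, Klra8 and Klra9 is uncertain.

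Of 11 tested cytotoxic effectors 2 fell, Gzma and Prf1 (median -0.88). Gzma, which encodes granzyme A (chromosome 13, 113093825 to 113100981), had 2315 and 942 CPM in WT and 258, 39.7 and 150 CPM in i4F mice. The log2 fold change was -3.37 ± 0.59 (SE; edgeR, adjusted p = 0.0274). Prf1, the pore-forming perforin (chromosome 10, 61297833 to 61304680), had 328 and 193 CPM against 20.6, 43.0 and 46.4 CPM, a log2 fold change of -2.54 ± 0.39 (adjusted p = 0.0217). No i4F mouse reached a WT mouse for either gene. Gzmb, granzyme B, had 328 and 188 CPM against 232, 126 and 33.1 CPM, with i4F 1 between the WT mice (adjusted p = 0.496).

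Of 8 tested cytokines 2 fell (Ifng and Csf2, median -1.85), and of 8 tested chemokines 2 fell (Ccl3 and Ccl4, median -1.88). Ifng, interferon-γ (chromosome 10, 118441046 to 118445892), had 394 and 364 CPM in WT and 67.0, 56.2 and 58.9 CPM in i4F mice, which was the tightest of these differences (log2 fold change -2.52 ± 0.26, edgeR, adjusted p = 0.00416). Ccl4 had 1511 and 1768 CPM against 252, 95.8 and 160 CPM (-3.20 ± 0.35, adjusted p = 0.00515). The 3 highest cells of WT 2 held 58.8% of its Ccl4 UMIs. Ccl3 had 487 and 248 CPM against 67.0, 19.8 and 43.4 CPM (-2.98 ± 0.43, adjusted p = 0.0159). Xcl1, which attracts cross-presenting dendritic cells, had 1188 and 822 CPM against 222, 29.7 and 172 CPM and missed the threshold narrowly (-2.72 ± 0.57, adjusted p = 0.0536). Csf2, which encodes GM-CSF, fell from 317 and 59.9 CPM to 15.5, 0 and 4.42 CPM, and of its 72 WT UMIs 58 lay in ILC2-like cells of the 2 mice (45 and 13). Ccr2, the receptor that draws cells towards CCL2, had 411 and 274 CPM against 92.7, 16.5 and 43.4 CPM (-2.73 ± 0.47, adjusted p = 0.0273) and was the only 1 of 15 tested chemokine receptor and homing genes to pass.

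**Figure D1:**
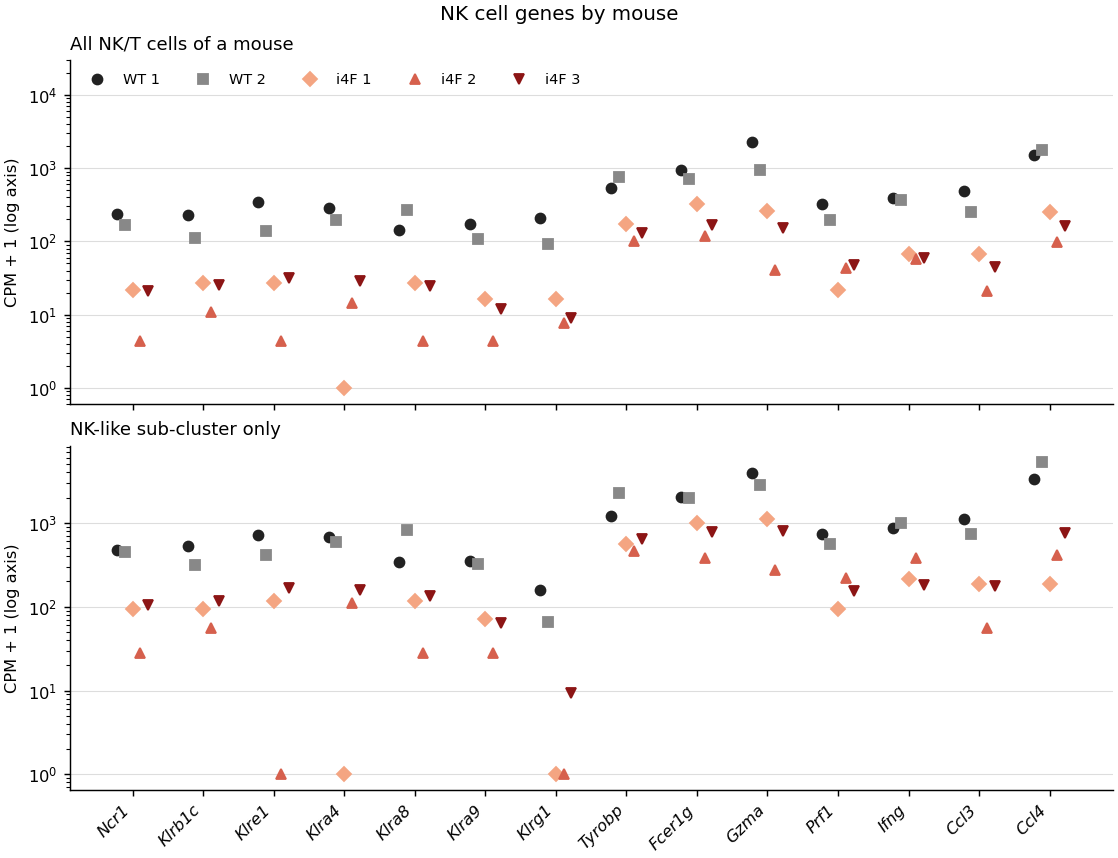
CPM + 1 (log axis) of 14 NK cell genes in each of the 2 WT mice (black and grey) and 3 i4F mice (orange to dark red), over all NK/T cells of a mouse (upper panel) and over the NK-like sub-cluster alone (lower panel), 1 point per mouse. In the upper panel every i4F mouse lies below both WT mice for each gene, as for Ifng at 56.2 to 67.0 CPM against 364 and 394 CPM. In the lower panel the order is the same, with smaller gaps for Ncr1, Gzma, Prf1 and Ifng.

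These genes were also looked at with depth made equal and without single mice. In cells thinned to 500 UMIs each, a UMI of Ncr1, Klrb1c or Klre1 was found in 23.5% and 14.2% of WT and in 3.45%, 1.02% and 2.39% of i4F NK/T cells (unthinned 34.7% and 20.7% against 6.19%, 1.46% and 5.34%), after leaving out 4, 1, 20, 48 and 32 shallower cells. B lymphocytes, which should lack these receptors, had 0% in 4 mice and 0.0799% in i4F 3 at the same thinning, with median depths of 467 to 2886 UMIs. A UMI of Cd3d, Cd3e or Cd3g was found in 45.6% of WT 1 cells and 60 of 120 WT 2 cells, against 44.8%, 50.7% and 60.1% of i4F NK/T cells, so the CD3 share overlapped while the NK receptor share did not. Without i4F 3, Ncr1, Klrb1c, Klre1, Klrg1, Klra9, Gzma, Prf1, Ifng, Ccl4, Ccl3, Tyrobp and Fcer1g all stayed past the threshold. Leaving out i4F 2 left 1 higher and 7 lower genes in all, and leaving out WT 1 left 1 higher and 9 lower, with Ifng and Ccl4 past the threshold under both. Gzma (-2.92 and -2.61, adjusted p of 0.102 and 0.19), Prf1, Klrg1, Klrb1c, Klre1, Klra9, Ccl3 and Fcer1g lost the call under both, Tyrobp without i4F 2 and Ncr1 without WT 1 (-3.20, adjusted p = 0.0641).

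Other genes that fell were early-response genes. Of 17 tested immediate early genes 3 fell (median -1.13). Nr4a1, which is induced by antigen receptor signals, had 1330 and 779 CPM in WT and 345, 317 and 183 CPM in i4F mice (edgeR, adjusted p = 0.0299). Fosb had 531 and 261 CPM against 103, 72.7 and 75.1 CPM, and Gadd45b had 1812 and 1622 CPM against 773, 568 and 447 CPM. All 3 were also lower in the other cells of i4F mice (Fosb 318, 339 and 710 CPM against 1333 and 964 CPM), and the part of this shared difference in the NK/T values was not tested. Gadd45b was highest in ILC2-like cells (7255 and 6387 CPM in WT, 2257, 1720 and 5291 CPM in i4F mice) and overlapped between the genotypes in NK-like cells, at 391 and 534 CPM against 446, 601 and 353 CPM. Among 19 tested activation and costimulation genes 2 fell (Nr4a1 and Nfkbid, an NF-κB regulator) and 0 rose (median -0.45).

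Several lower genes were no lymphocyte genes. Dcn, decorin, a matrix gene of fibroblasts, had 1735 and 912 CPM in WT and 46.4, 19.8 and 62.6 CPM in i4F NK/T cells, and Gsn had 1429 and 967 CPM against 15.5, 26.4 and 38.3 CPM. Just 5 WT cells, 3 of WT 1 and 2 of WT 2, carried 563 of the 578 and 408 of the 439 UMIs of these genes, and both cells of WT 2 were called doublets. Without these 5 cells the log2 fold change of Dcn went from -4.68 to -0.22, 9 genes were higher and 28 lower, and 37 of the 54 called genes stayed called. Clec3b, Dpep1, Gsn, Htra3, Lpl, Meg3, Plxdc2, Rarres2, Serping1, Serpinh1 and Sparcl1 were then no longer tested, and Dcn, Cd81, Ckb, Hsd11b1, Nfkbid and, among the higher genes, Il1b no longer passed. The NK genes stayed called, with Ncr1 at -3.54, Gzma at -3.46, Prf1 at -2.59, Ifng at -2.56 and Ccl4 at -3.23. In all other cells Dcn was likewise lower in i4F mice, at 1187, 1322 and 4640 CPM against 8713 and 11508 CPM. This selection of cells was chosen after seeing the data.

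The higher genes are given beside their levels in the other cells of the same mice. Reg2, a regenerating gene of acinar cells, had 65.7 and 17.1 CPM in WT and 1051, 4144 and 14662 CPM in i4F NK/T cells (log2 fold change 7.56 ± 1.32, edgeR, adjusted p = 0.0273), beside 1991 and 71.0 CPM against 2892, 8628 and 34683 CPM in all other cells. The order of the 3 i4F mice was the same in both, and 993 of the 993 NK/T cells of i4F 3 held a Reg2 UMI. Reg3a, Reg3b and Reg3g, which lie beside it on chromosome 6 (78370657 to 78468872), rose with it, Reg3g from 10.9 and 4.28 CPM to 196, 413 and 373 CPM (5.59 ± 0.65, adjusted p = 0.00515). Of 25 listed acinar genes only 6 were in the tables, and the 4 that are not Reg genes (Gp2, Spink1, Cuzd1 and Amy2b) did not pass. Gp2, a zymogen granule protein, had 257 and 265 CPM in WT against 41.2, 129 and 568 CPM in i4F NK/T cells, so i4F 1 and i4F 2 lay below WT and i4F 3 above. The part of free acinar RNA in these values was not tested.

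Of the other higher genes, Rps29, which encodes a ribosomal protein, had 597 and 728 CPM in WT and 1942, 3133 and 2066 CPM in i4F NK/T cells (log2 fold change 1.96 ± 0.33, edgeR, adjusted p = 0.0273). Rps28, Rpl38, Rps27rt and Gm10076 rose as well, the last 2 being near-copies of other ribosomal genes whose UMIs may be shared. In all other cells Rps29 was at 336 and 437 CPM against 966, 1132 and 1035 CPM, in B lymphocytes at 616 and 553 CPM against 2118, 2610 and 1774 CPM, and in macrophages at 627 and 705 CPM against 1239, 1273 and 1243 CPM. The i4F mice were likewise all above WT in each of these 3 sets of cells as well.

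Il1b, which encodes the inflammatory cytokine IL-1β of myeloid cells, was the remaining one. It had 0 UMIs in both WT mice and 25, 18 and 58 UMIs (129, 59.5 and 42.7 CPM) in i4F NK/T cells (edgeR, adjusted p = 0.0428), and 93.1% of the 58 UMIs of i4F 3 lay in 3 cells. In all other cells Il1b was at 230 and 186 CPM against 1737, 2375 and 543 CPM. The 11 macrophage and monocyte genes summed to 126 and 364 CPM in WT and to 1030, 558 and 420 CPM in i4F NK/T cells, with Lyz2 at 0 and 29.96 CPM against 268, 122 and 98.7 CPM, and their part in the Il1b value was not tested.

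**Figure D2:**
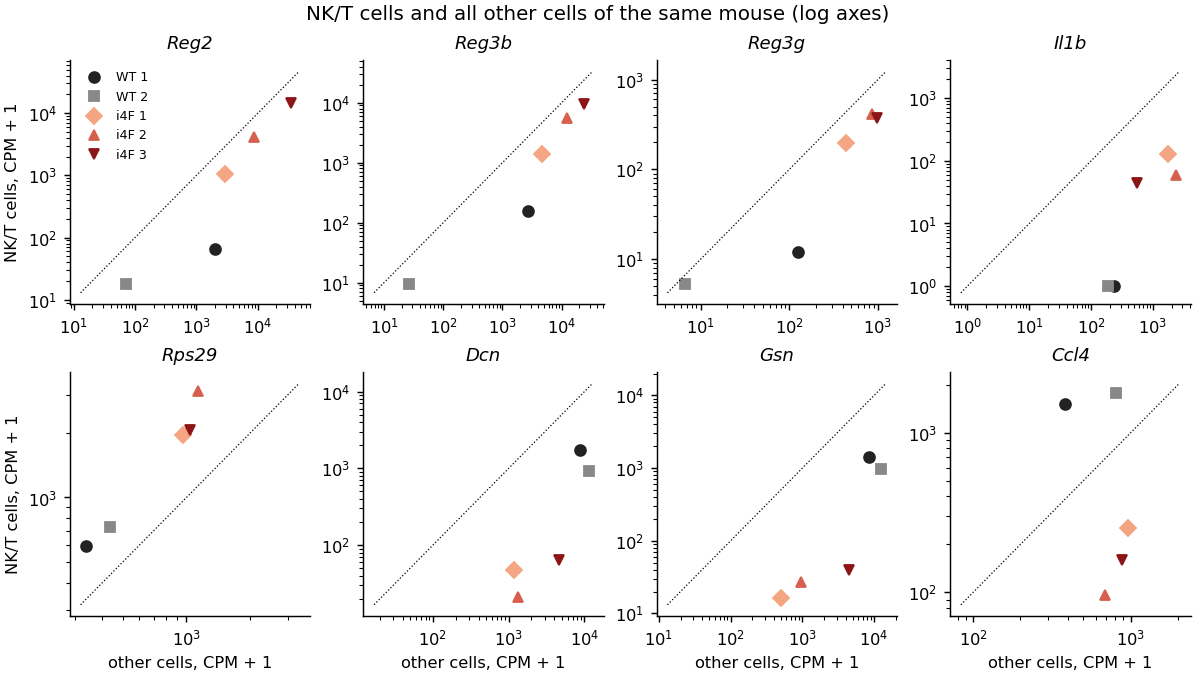
CPM + 1 in NK/T cells (vertical axes) against CPM + 1 in all other cells of the same mouse (horizontal axes) for 8 genes, log axes, 1 point per mouse, with the dotted line of equal levels. Reg2, Reg3b and Reg3g follow the other cells from mouse to mouse below the line, Rps29 lies above it, and Ccl4 is lower in the NK/T cells of i4F than of WT mice although other cells had 380 and 810 CPM in WT and 967, 688 and 875 CPM in i4F mice.

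Other gene groups had no member past the threshold. Where the genotypes do not overlap below, 2 against 3 mice give p = 0.2 at best in an exact two-sided permutation test. How often all genes tested lie apart in this way was not counted. None of the 9 naive and central memory genes passed the threshold. All 9 had a positive fold change (median 1.15, beside 0.01 over all genes tested), and their summed level was 969 and 813 CPM in WT against 1288, 2743 and 1926 CPM in i4F mice. Ccr7, the lymph node homing receptor, had 153 and 163 CPM in WT and 222, 634 and 535 CPM in i4F mice (adjusted p = 0.157, edgeR), and Satb1, a chromatin organiser of T cells, had 192 and 133 CPM against 515, 724 and 254 CPM (adjusted p = 0.127). Cd8b1 had 82.1 and 77.0 CPM against 124, 231 and 341 CPM and Cd8a 43.8 and 17.1 CPM against 72.1, 152 and 184 CPM, with no overlap between the genotypes and adjusted p-values of 0.157 and 0.0909. CD8 UMIs as a share of CD4 and CD8 UMIs overlapped between the genotypes, at 79.3% and 71.0% against 67.9%, 86.6% and 88.6% (exact two-sided permutation test, p = 0.6, difference 5.86 points, from 1.69 without WT 2 to 12.4 without i4F 1). In the same fit 0 of 16 tested interferon-stimulated genes (median -0.24), 0 of 14 MHC class I and peptide loading genes (-0.50), 0 of 17 T cell receptor signalling genes (-0.08), 0 of 5 checkpoint and exhaustion genes (-0.34), 0 of 18 cell cycle genes (0.12), 0 of 11 glycolysis genes (0.24) and 0 of 17 lineage transcription factors (-0.22) passed. The MHC class I list summed to 18019 and 13931 CPM in WT against 10479, 8774 and 10675 CPM in i4F mice, which did not overlap. Pdcd1, the checkpoint receptor PD-1, had 120 and 137 CPM against 288, 106 and 64.8 CPM.

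**Figure D3:**
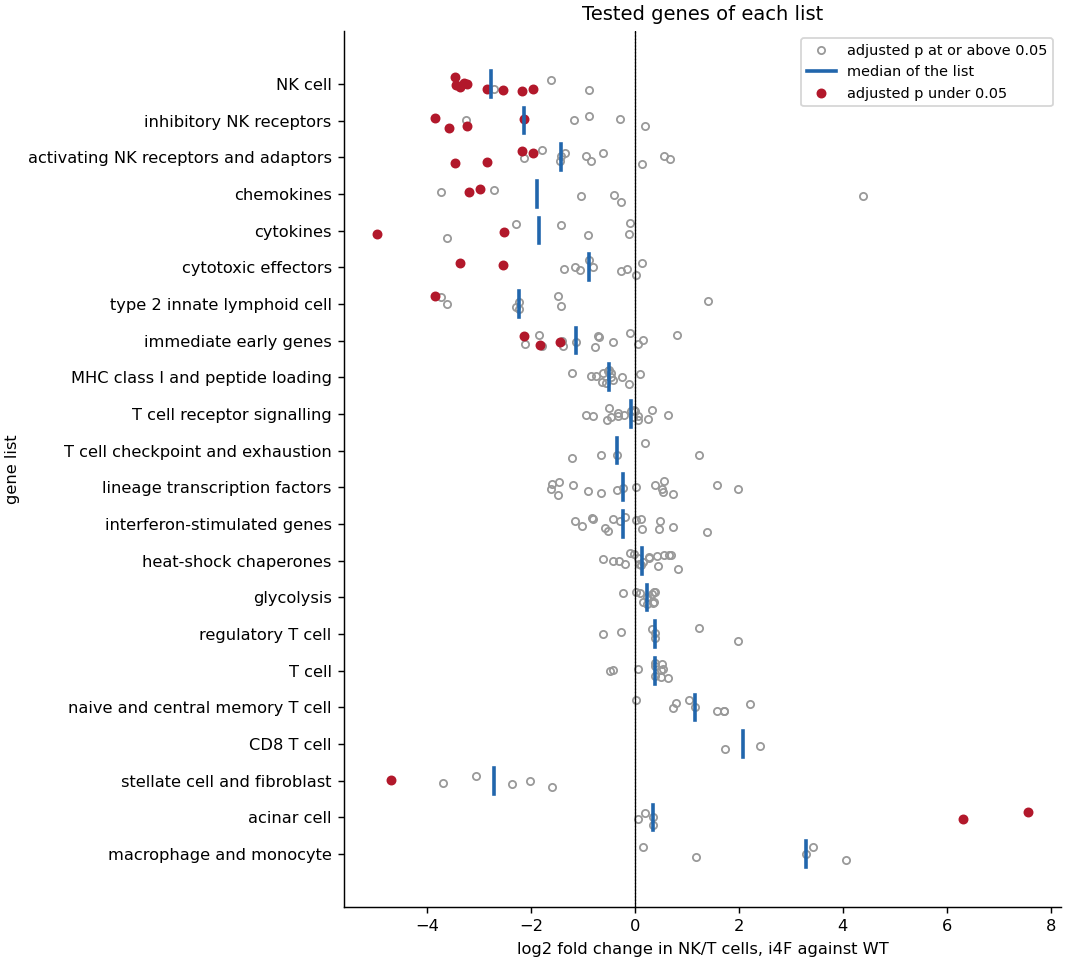
Log2 fold change (i4F against WT) in NK/T cells of the tested genes of each list, 1 point per gene, filled where the adjusted p was under 0.05, with a blue bar at the median of the list and the dotted line at the median of all 3574 genes tested (0.01). The NK cell list lies to the left with 9 of 12 genes past the threshold, while 0 of 11 genes of the T cell list passed.

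To see how the lineages are divided, all NK/T cells, of both genotypes, were clustered together. At a resolution of 0.5 they formed 8 sub-clusters, named from the marker lists. The NK-like sub-cluster (31 and 43 WT cells, 47, 44 and 162 i4F cells) was led by Ccl5, Ccl4, Tyrobp, Xcl1 and Gzma. A γδ T cell-like sub-cluster (13 and 29 against 42, 16 and 50 cells) was led by Trdc and Cd163l1, and an ILC2-like one (13 and 18 against 10, 8 and 14 cells) by Calca, Hs3st1, Ccl1, Il13 and Il5. The other 5 were T cell-like. One was led by Hspa1a and Hspa1b and had 356 of its 370 cells (96.2%) from i4F 3, one by Tubb2a and Ccr7 with 270 of 277 cells from i4F 3, and one by Igfbp4 with 198 of 259 cells (76.4%) from i4F 2, so that these may be single libraries and not cell types. One led by Tnfrsf4 and Foxp3, the master regulator of regulatory T cells, had 4 and 15 WT and 59, 57 and 89 i4F cells, and a cycling one led by Stmn1 had 52 cells.

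**Figure D4:**
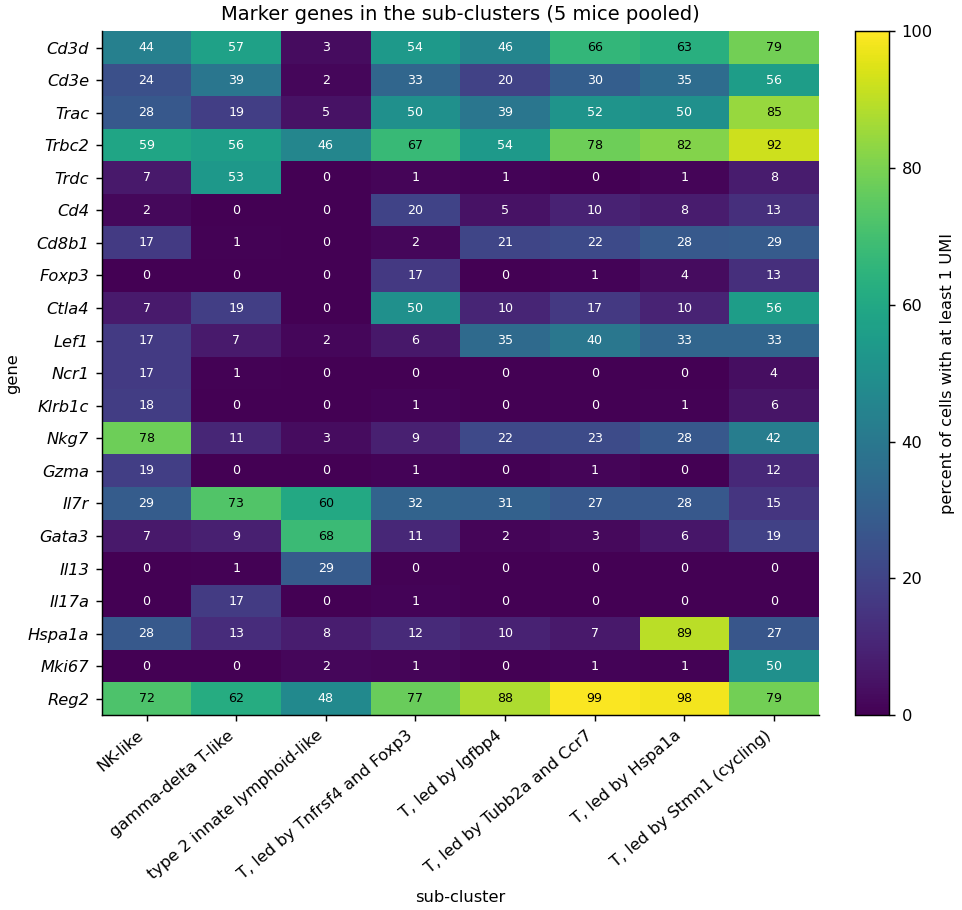
Percent of cells of each of the 8 sub-clusters with at least 1 UMI of each marker gene (colour and printed value, 0 to 100). Ncr1 reached 16.8% in the NK-like sub-cluster and Trdc 53.3% in the γδ T cell-like one, while Cd3d reached 43.7% in the NK-like one and Reg2 was found in 47.6% to 99.3% of every sub-cluster.

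The NK-like sub-cluster is not purely NK cells. Nkg7 was found in 78.0% of its cells, but Ncr1 in 16.8% and Cd3d in 43.7%, so cells with T cell transcripts belong to it. By mouse, Ncr1 was found in 41.9% and 37.2% of its WT cells against 8.51%, 2.27% and 13.0% of its i4F cells, at unequal depth. Here too fewer NK cells and less RNA of a gene per NK cell cannot be told apart. The median depth of the sub-cluster was 1296 UMIs. When the genes called in NK/T cells were left out of the clustering, the NK-like share of NK/T cells was 45.8% and 32.2% in WT (33 and 39 cells) and 24.2%, 12.6% and 16.6% in i4F mice (47, 43 and 165 cells). The called genes stayed in the lists that name the sub-clusters, and NK genes that missed the threshold were not left out. The sizes may therefore still depend on NK genes. As a share of all cells of a mouse, NK-like cells at a resolution of 0.5 made up 0.716% and 0.680% in WT against 0.479%, 0.535% and 2.13% in i4F mice, which overlap, with i4F 3 the highest. Among NK/T cells clustered without the called genes the i4F mice all lay below WT (mean 39.03% ± 9.62, SD, n = 2, against 17.8% ± 5.92, n = 3). The exact permutation test (two-sided) gave p = 0.2, the lowest that 2 mice against 3 can give. In a log-normalized clustering the NK-like sub-cluster had 13 NK markers and no T cell marker enriched, was led by Gsn with Dcn also among its top 5 genes, had Apoe, Cd74, Itgax, Krt18, Sparc and Fabp4 of other cell types enriched, and held 30 of 72 and 30 of 121 WT cells against 14 of 194, 5 of 342 and 57 of 993 i4F cells.

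Within the NK-like cells at a resolution of 0.2 (30 and 38 WT cells, 48, 44 and 161 i4F cells) many of these NK genes were lower too. Of 1306 genes tested 18 were higher (1.38%) and 16 lower (1.23%), together 2.6%, and 199 had an unadjusted p under 0.05. Ncr1 had 470 and 443 CPM in WT and 93.8, 27.3 and 104 CPM in i4F NK-like cells (log2 fold change -2.22 ± 0.40 (SE), edgeR, adjusted p = 0.0113). Gzma had 3913 and 2867 CPM against 1126, 273 and 805 CPM (-2.05 ± 0.39, adjusted p = 0.0152), and Prf1 743 and 560 CPM against 93.8, 218 and 153 CPM (-1.94 ± 0.38, adjusted p = 0.0155). The secreted products were lower too. Ccl4 had 3378 and 5369 CPM against 188, 409 and 747 CPM (-3.01 ± 0.43, adjusted p = 0.0017), Xcl1 2817 and 2346 CPM against 539, 109 and 767 CPM (-2.17 ± 0.45, adjusted p = 0.0185), and Ifng 861 and 1003 CPM against 211, 382 and 182 CPM (-1.85 ± 0.38, adjusted p = 0.0185). In each case no i4F mouse reached a WT mouse. These values are per UMI of the class, whose make-up may differ between the genotypes (above). Without i4F 3 Ifng (-1.60, adjusted p = 0.0749) and Prf1 (-2.00, adjusted p = 0.0556) were no longer called by edgeR, and without i4F 1 Ifng (adjusted p = 0.0983), Prf1 (0.0785) and Xcl1 (0.0944) were not, while Ncr1, Gzma and Ccl4 passed without any 1 mouse. Ccl5, the chemokine that led the sub-cluster, did not separate the genotypes, at 11321 and 15246 CPM against 13251, 10100 and 13107 CPM (log2 fold change -0.02 ± 0.23, adjusted p = 0.985).

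In this class 9 of 12 tested NK markers fell (median -1.99 beside -0.02 over all genes tested), 8 of them called in NK/T cells as well, with Xcl1 in place of Fcer1g (-1.34, adjusted p = 0.0637, edgeR), and 0 of 8 tested T cell genes passed (median 0.24). Fabp4, a fatty acid-binding protein of endothelial cells and fat, had the most negative fold change (-3.27). Of the higher genes, Reg2, Reg3a, Reg3b, Reg3g, Rps28, Rpl38, Gm10076 and Rps29 (548 and 704 CPM against 2017, 2894 and 1775 CPM) were also called in NK/T cells. The ribosomal genes Rpl39, Rplp1, Rplp2, Rps21 and Rps27 were called in NK-like cells only. So were Emb, Dmbt1, the metallothionein gene Mt1, the antibody constant region gene Igkc, and Cxcl2 with 0 UMIs in both WT mice and 15, 5 and 22 UMIs in i4F mice. Emb, embigin, a membrane protein partner of monocarboxylate transport, rose from 483 and 404 CPM to 1501, 1911 and 896 CPM (1.77 ± 0.39, adjusted p = 0.023). Outside the NK/T cells of the same mice Emb was at 37.9 and 30.7 CPM against 63.4, 126 and 40.4 CPM. Over all NK/T cells it had 147 of 182693 and 132 of 233648 UMIs in WT. The i4F mice had 326 of 194108, 458 of 302614 and 963 of 1358254 UMIs. The genotypes overlapped there, and in both WT mice this level was above that of the NK-like cells. The part of other lymphocytes in the NK-like value was not tested.

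The values depend on how the NK-like class is drawn. Clustered without the genes called in NK/T cells, Ncr1 (-2.04), Gzma (-1.85), Prf1 (-1.74), Ifng (-1.97) and Ccl4 (-2.86) stayed past the threshold. In the log-normalized clustering, where 14 and 5 cells left i4F 1 and i4F 2 under the minimum of 20 cells and only i4F 3 entered the fit, the log2 fold change was -0.79 for Ncr1, -0.44 for Gzma, -2.13 for Ifng and -1.51 for Ccl4. The spread there came from the WT mice alone, so no call is read from it. With cells of at least 500 genes alone 0 genes passed in edgeR (138 at an unadjusted p under 0.05, DESeq2 not run on these cells), at log2 fold changes of -2.00 for Ncr1 and -2.52 for Gzma. In NK-like cells without a CD3 UMI, with WT 2 as the only WT mouse of at least 20 cells, the log2 fold change was -1.31 for Gzma, -2.13 for Ifng, -1.75 for Xcl1 and -1.87 for Ncr1. Here the spread came from the i4F mice alone, and again no call is read from it.

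By clustering, T cell-like cells were a larger share of the NK/T cells in each i4F mouse than in either WT mouse. Clustered without the called genes, they made up 22.2% and 30.6% of NK/T cells in WT and 49.0%, 81.0% and 77.0% in i4F mice (mean 26.4% ± 5.91, SD, n = 2, against 69.0% ± 17.5, n = 3). The genotypes did not overlap, with or without i4F 3, and the exact permutation test (two-sided) gave its lowest possible value, p = 0.2. Among T cell-like cells no gene passed in edgeR in either direction (0.0% of 3651, with 264 at an unadjusted p under 0.05, and 2 higher and 0 lower in DESeq2). WT 1 had 16 such cells, fewer than the minimum of 20, so WT 2 with 37 cells was the only WT mouse in that fit and was assumed to vary like the i4F mice. With WT 1 kept despite its 16 cells, 0 of 1795 genes passed in edgeR (165 at an unadjusted p under 0.05). Within T cell-like cells Ccr7 (710 and 446 CPM against 348, 735 and 633 CPM) and Foxp3 (54.6 and 43.2 CPM against 113, 52.8 and 47.0 CPM) overlapped between the genotypes. Over all NK/T cells Foxp3 had 2 and 3 UMIs in WT and 12, 13 and 50 UMIs in i4F mice, and the sub-cluster led by Tnfrsf4 and Foxp3 made up 5.56% and 12.4% against 30.4%, 16.7% and 8.96% of NK/T cells, which overlap.

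**Figure D5:**
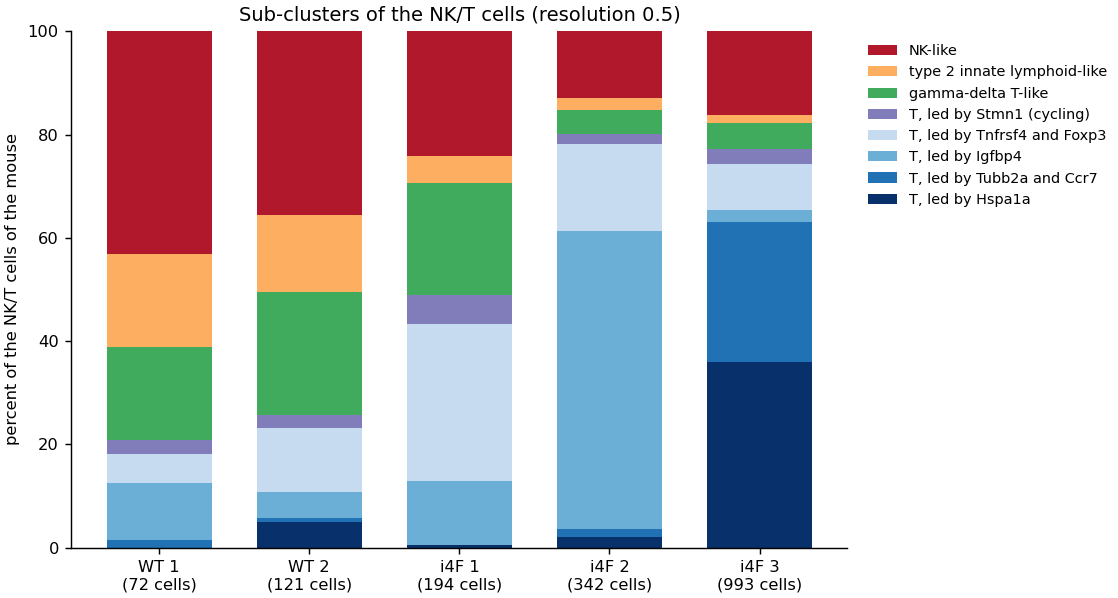
Percent of the NK/T cells of each mouse in each of the 8 sub-clusters at a resolution of 0.5 (stacked bars, with the number of cells of the mouse under each bar). T cell-like sub-clusters fill most of the bars of i4F 2 and i4F 3, the sub-cluster led by Hspa1a makes up 35.9% of i4F 3 and at most 4.96% of any other mouse, and the ILC2-like part shrinks from 18.1% and 14.9% in WT to 5.15%, 2.34% and 1.41% in i4F mice.

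Hspa1a, an inducible chaperone, set i4F 3 apart. It had 679 and 1288 CPM in the WT NK/T cells and 139, 482 and 3407 CPM in the i4F NK/T cells, so the i4F mice lay on both sides of the WT mice. In i4F 3 its 4627 UMIs lay in 436 cells. B lymphocytes of i4F 3 were also highest, at 3178 CPM against 787 and 435 CPM in the other i4F mice. Of 18 tested heat-shock chaperones 0 passed (median 0.14). Without this sub-cluster 16 genes were higher and 60 lower, and all 54 called genes stayed called.

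ILC2-like and γδ T cell-like cells were also compared. The ILC2-like share of NK/T cells, clustered without the called genes, was 16.7% and 14.9% in WT against 5.15%, 2.34% and 1.51% in i4F mice (12 and 18 against 10, 8 and 15 cells), with the i4F mice all below WT (exact permutation test, two-sided, p = 0.2, the lowest possible). As a share of all cells of a mouse the ILC2-like cells at a resolution of 0.5 made up 0.300% and 0.285% in WT against 0.102%, 0.0973% and 0.184% in i4F mice. The 12 ILC2 markers included 9 tested genes, of which 1 (Klrg1) fell (median -2.23), and Hs3st1, which led the ILC2-like sub-cluster, fell in NK/T cells from 208 and 146 CPM to 15.5, 13.2 and 3.68 CPM (-4.39 ± 0.50, edgeR, adjusted p = 0.00515). γδ T cell-like shares overlapped, at 18.1% and 24.0% against 21.6%, 4.68% and 5.04% (exact two-sided permutation test, p = 0.4).

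Il17a, the cytokine of the type 17 γδ T cell, went the other way. In γδ T cell-like cells it had 28.0 and 52.9 CPM in WT and 452, 909 and 306 CPM in i4F mice, or 1 and 3 UMIs in 1 and 3 of 13 and 29 cells against 17, 12 and 18 UMIs in 8, 2 and 12 of 42, 16 and 50 cells. In i4F 2, 11 of the 12 UMIs lay in 1 cell. In the fit of γδ T cell-like and ILC2-like cells together, 4 of 1221 genes were higher (0.328%) and 2 lower (0.164%), together 0.491%, and Il17a was one of the 4 (log2 fold change 3.73 ± 0.66, edgeR, adjusted p = 0.0406). The other 3 were Reg2, Reg3b and Reg3g, and the lower ones Dcn and Gsn. Without the cells that held at least 10 UMIs of Dcn and Gsn 0 genes passed (68 at an unadjusted p under 0.05), and without i4F 2 also 0 (69), where Il17a was at 3.56 (adjusted p = 0.0975) and 3.47 (0.466). Its call was also lost without i4F 1 (adjusted p = 0.104), in cells of at least 500 genes (0.207) and with doublets removed (0.0552). DESeq2 called 7 higher and 3 lower genes, which included 4 of these 6, and gave Il17a no adjusted p.

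The share of NK/T cells among all captured cells was 1.66% and 1.91% in WT against 1.98%, 4.16% and 13.0% in i4F mice, and without i4F 3 the difference of the means went from 4.61 to 1.28 points. Among immune cells (NK/T cells plus every cluster the authors named as macrophages or lymphocytes) it was 32.3% and 16.2% against 4.66%, 8.62% and 35.1%, a difference of -8.13 points. The direction of this comparison therefore depends on the denominator, and the exact two-sided permutation test gave p = 0.2 for the first and p = 0.6 for the second.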

How the data were processed

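Libraries of the 10x Genomics 3′ v3 kit were aligned by the authors to the mouse genome (GRCm38, mm10) with Cell Ranger. They estimated ambient RNA and corrected for it with SoupX, and removed cells under 150 genes or over 5% mitochondrial reads. They deposited whole-number UMI counts per gene and cell, with cluster names and the percent of mitochondrial reads per cell as the authors computed it. Whether these deposited counts are from before or after the SoupX correction is not given in the sources used here. Counts covered the 33011 genes listed for either genotype (26831 for both), and a gene not listed for a genotype counted as 0 there. They were summed per mouse and compared with edgeR 4.0.16 (TMM, low-count filter, quasi-likelihood test, Benjamini-Hochberg adjustment over all genes tested, threshold 0.05), with DESeq2 1.42.0 as an alternative. Sub-clusters used Seurat 5.3.0 (SCTransform, 3000 variable genes, 20 components, resolution 0.2 or 0.5) and were named from at least 3 listed markers in at least 10% of their cells and 1.5-fold above the rest after adding 20 CPM. A class entered a fit with at least 20 cells per mouse. Scrublet marked 0 of 7614 cells in i4F 3 and 0.0462% in WT 1, so it did not work there, and doublets were kept. Of 6 shares tested by exact two-sided permutation over mice, those at p = 0.2 had an adjusted p of 0.3. Intervals and limits cover counting error only. Named genes were the 5 given markers, up to 4 genes of each list, up to 10 called genes per direction in NK/T cells and 5 in a sub-cluster by fold change, up to 5 leading genes of a sub-cluster, rtTA and the factors, and further genes were picked with their values in view. The cells, lists and tests were chosen with earlier results of these data known.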

Additional observations from a re-analysis of the deposited data

How the results depend on the processing

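In NK/T cells (10 genes higher, 44 lower) DESeq2 called 31 higher and 69 lower, and edgeR without TMM called 12 and 70, with a median of all genes of -0.13 in place of 0.01. Without the filter on low counts it called 83 and 164, with doublets removed 6 and 27, without the sub-cluster led by Hspa1a 16 and 60, and without the cells rich in Dcn and Gsn 9 and 28. Leaving out 1 mouse gave 1 to 34 higher and 7 to 79 lower genes, a lone WT mouse being assumed to vary like the i4F mice. In NK-like cells (18 higher, 16 lower) omitting TMM gave 30 lower genes, log-normalization 9 higher and 30 lower, clustering without the called genes 20 and 41, cells without a CD3 UMI 9 and 11, and cells of at least 500 genes 0 and 0. The log-normalized fit had 1 i4F mouse and that of cells without a CD3 UMI 1 WT mouse, so no call is read from either. Leaving out 1 mouse gave 6 to 74 higher and 8 to 26 lower. In T cell-like cells (0 and 0) DESeq2 gave 2 and 0, its size factors 1 and 1, no filter 9 and 6, and leaving out 1 i4F mouse 6 to 15 higher and 2 to 13 lower, so each of these 3 fits called genes. In γδ T cell-like and ILC2-like cells (4 and 2) DESeq2 gave 7 and 3, no filter 14 and 54, cells of at least 500 genes 0 and 1, doublets removed 0 and 0 (95 at an unadjusted p under 0.05), no cells rich in Dcn and Gsn 0 and 0, and leaving out 1 mouse 0 to 27 higher and 0 to 39 lower. The cause of these shifts was not tested.

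The replicate numbers were shared by 2 pairs of mice, whose deviations correlated at 0.0664 (number 1) and -0.0483 (number 2) over 3574 genes, so they pair nothing. With the replicate number as a block edgeR called 110 higher and 146 lower genes in NK/T cells, 0 and 0 in NK-like cells (185 at an unadjusted p under 0.05), and 19 and 23 in γδ T cell-like and ILC2-like cells. No block could be fitted in T cell-like cells, with 1 WT mouse.

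Il7r, which was not called, changed sign with the block (0.0477), and leaving out 1 mouse gave -0.33 to 0.0828 (0.0828 without i4F 3, 0.00632 without WT 2), and the NK/T share changed sign among immune cells (-8.13 points). Leaving out 1 mouse gave differences of 1.28 to 6.81 points for the NK/T share of all cells, 36.8 to 52.3 for T cell-like, -23.7 to -13.5 for NK-like, -15.1 to -11.9 for ILC2-like and -16.2 to -7.60 for γδ T cell-like cells. The T cell-like and NK-like ranges are at a resolution of 0.2, the ILC2-like and γδ T cell-like ones at 0.5. These clusterings kept the called genes, unlike the one that gave the T cell-like, NK-like and ILC2-like shares tested above. Over 14 alternatives in NK/T cells Ifng ranged from -2.74 to -2.44, Ccl4 from -3.44 to -2.91 and Ncr1 from -4.17 to -3.13. Of the alternatives for single genes 1093 left the call as it was, 353 lost it, 6 gained it and 3 changed its sign, both of these 1-mouse fits included. With 2 WT mice of 72 and 121 cells, genes under about 1 UMI in several cells were out of reach.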

Other observations

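Calca, which encodes the neuropeptide CGRP and is made by activated ILC2, led the ILC2-like sub-cluster. Its UMIs were 23 and 52 in 4 of 13 and 6 of 18 WT cells, and 150, 135 and 26 in 10 of 10, 8 of 8 and 7 of 14 i4F cells. In γδ T cell-like cells of the same mice it had 0 and 8 UMIs against 1, 1 and 3 UMIs. The ILC2 cytokine Il5 had 327 and 769 CPM in WT and 1505, 469 and 677 CPM in i4F ILC2-like cells, which overlap, and Il13 had 506 and 1567 CPM against 878, 0 and 492 CPM. Gata3, the transcription factor of ILC2, overlapped too, at 1219 and 976 CPM against 1505, 1094 and 1230 CPM, as did Areg and Il1rl1. Other genes, picked with their values in view, were lower in every i4F mouse relative to all UMIs of these cells (33630 and 33820 against 7974, 6396 and 16254). These were Hs3st1 (36 and 34 against 3, 4 and 5 UMIs), Ccl1 (82 and 73 against 0, 0 and 19), Arg1 (24 and 26 against 2, 4 and 6), Klrg1 (14 and 13 against 1, 2 and 2) and Csf2 (45 and 13 against 3, 0 and 3). How many of all genes lie apart in this way in these cells was not counted. Csf2 was nearly equal in WT 2 (13 of 33820 UMIs) and i4F 1 (3 of 7974 UMIs). Many of the i4F counts were at most 4 UMIs. The ILC2-like cells were too few per mouse for a fit of their own. Calca and other markers given here helped to define the sub-cluster, so these values are a description.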
